A study of Mus musculus with 16 samples.

Results

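Arginine is used by macrophages along several competing routes, and the 7 genes described here, Arg1, Arg2, Nos2, Slc7a2, Ass1, Odc1 and Gch1, encode main steps of these routes. They were chosen by name, with earlier results of these data known. All 7 were found in the count table of 55487 genes, and all 7 passed the filter on low counts that left 12372 genes for testing. RNA was measured in 16 samples of bone marrow-derived macrophages (BMDMs) of wild type Balb/c mice 8 weeks of age. BMDMs were cultured in plain medium (DMEM, n = 2) or in conditioned medium (CM, n = 3) of 4T1 cells, a mouse mammary tumor line. Further samples received the JAK1/2 inhibitor ruxolitinib (Rux) in DMEM (n = 3), in CM with a label of 4 h (n = 3) or in CM with a label of 2 h (n = 2), or CM with Rux and IKK-16, an inhibitor of the IκB kinases upstream of NF-κB (n = 3). Ruxolitinib was used at 0.5 μM and IKK-16 at 0.8 μM in CM, and the dose and time for DMEM + Rux are not given in the sources used here. The labels give no time for CM, DMEM or CM + Rux + IKK-16 either, and the study's methods describe 4 h of CM before RNA isolation. Those methods also describe serum starvation before CM, with ruxolitinib already present in that step. No sample is labelled as CM without ruxolitinib at 2 h or as IKK-16 without ruxolitinib. CM is an undefined mixture of tumor cell products.

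Slc7a2 encodes CAT2, a transporter that carries arginine into the cell. Arginase, encoded by Arg1 (cytosolic) and Arg2 (mitochondrial), splits arginine into ornithine and urea, and Odc1 encodes ornithine decarboxylase, which turns ornithine into putrescine, the first polyamine. Nos2 encodes inducible nitric oxide synthase, which turns arginine into nitric oxide and citrulline. Ass1 encodes argininosuccinate synthase, the step that starts the return of citrulline to arginine, and Gch1 encodes GTP cyclohydrolase, the first step in making tetrahydrobiopterin (BH4), a cofactor of nitric oxide synthase. Nos2 and Arg1 are widely used as markers of inflammatory and of alternatively activated or tumor-associated macrophages.

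Total counts were 18449388 to 46215853 per sample (median 31610906). All 8 macrophage markers examined were expressed, with a summed level of 40111 to 57129 CPM, and markers of B cells and of T or NK cells summed to at most 0.233 and 0.0269 CPM. The 3 endothelial markers summed to 128 to 300.5 CPM, nearly all Vwf (122 to 295 CPM), with Cdh5 at 0.642 CPM or less. The 5 fibroblast markers summed to 15.6 to 33.5 CPM, mostly Pdgfrb, Col1a1 and Col1a2. The 11 neutrophil markers summed to 9.32 to 10.2 CPM in CM, 5.90 to 7.42 CPM in CM + Rux (4 h) and 2.42 to 3.60 CPM in DMEM. In CM + Rux + IKK-16 the neutrophil sum was 3.48 to 6.78 CPM. Of these markers, Mmp8 reached the highest level (2.01 to 8.06 CPM over all samples), followed by S100a8 (0.207 to 2.46 CPM). Ly6g and Retnlg were at 0 in every sample, and the part of these low levels in the changes below was not tested. Levels are normalized CPM, read counts scaled to library size by the relative log expression method, as mean ± SD. This scaling moved log2 fold changes by 0.31 in CM against DMEM, 0.30 in CM + Rux (4 h) against DMEM + Rux, 0.36 in CM + Rux (2 h) against DMEM and -0.11 in CM + Rux + IKK-16 against CM, relative to scaling by total counts alone. Changes were tested with edgeR's quasi-likelihood test over all 12372 genes, and a gene was called when its adjusted p was below 0.05 and its absolute log2 fold change above 0.5. Samples that share a replicate number also deviated together, so values from a model that includes the number are given where they change a call. In these bulk samples, fewer cells of a type and less RNA per cell cannot be told apart.

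The members sit at very different levels, which can be compared between genes only per length (RPKM, normalized CPM per kilobase of exon). In CM, Arg2 was highest at 227 ± 22.6 RPKM (n = 3), followed by Slc7a2 at 116 ± 0.749, Ass1 at 89.7 ± 20.8, Nos2 at 39.5 ± 10.4, Odc1 at 22.7 ± 5.77, Arg1 at 13.97 ± 8.99 and Gch1 at 11.6 ± 0.887 RPKM. The level of Arg2 thus exceeded that of Arg1 in every CM sample, by 30.4-, 10.1- and 20.3-fold in replicates 1, 2 and 3. In DMEM, Arg2 was again highest at 18.9 ± 5.04 RPKM (n = 2), ahead of Ass1 at 12.0 ± 5.59 and Gch1 at 5.25 ± 0.195 RPKM, while Slc7a2 was at 0.917 ± 0.0244 RPKM. Arg2 held the first place in all 6 groups, and Arg1 the sixth or seventh.

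**Figure D1:**
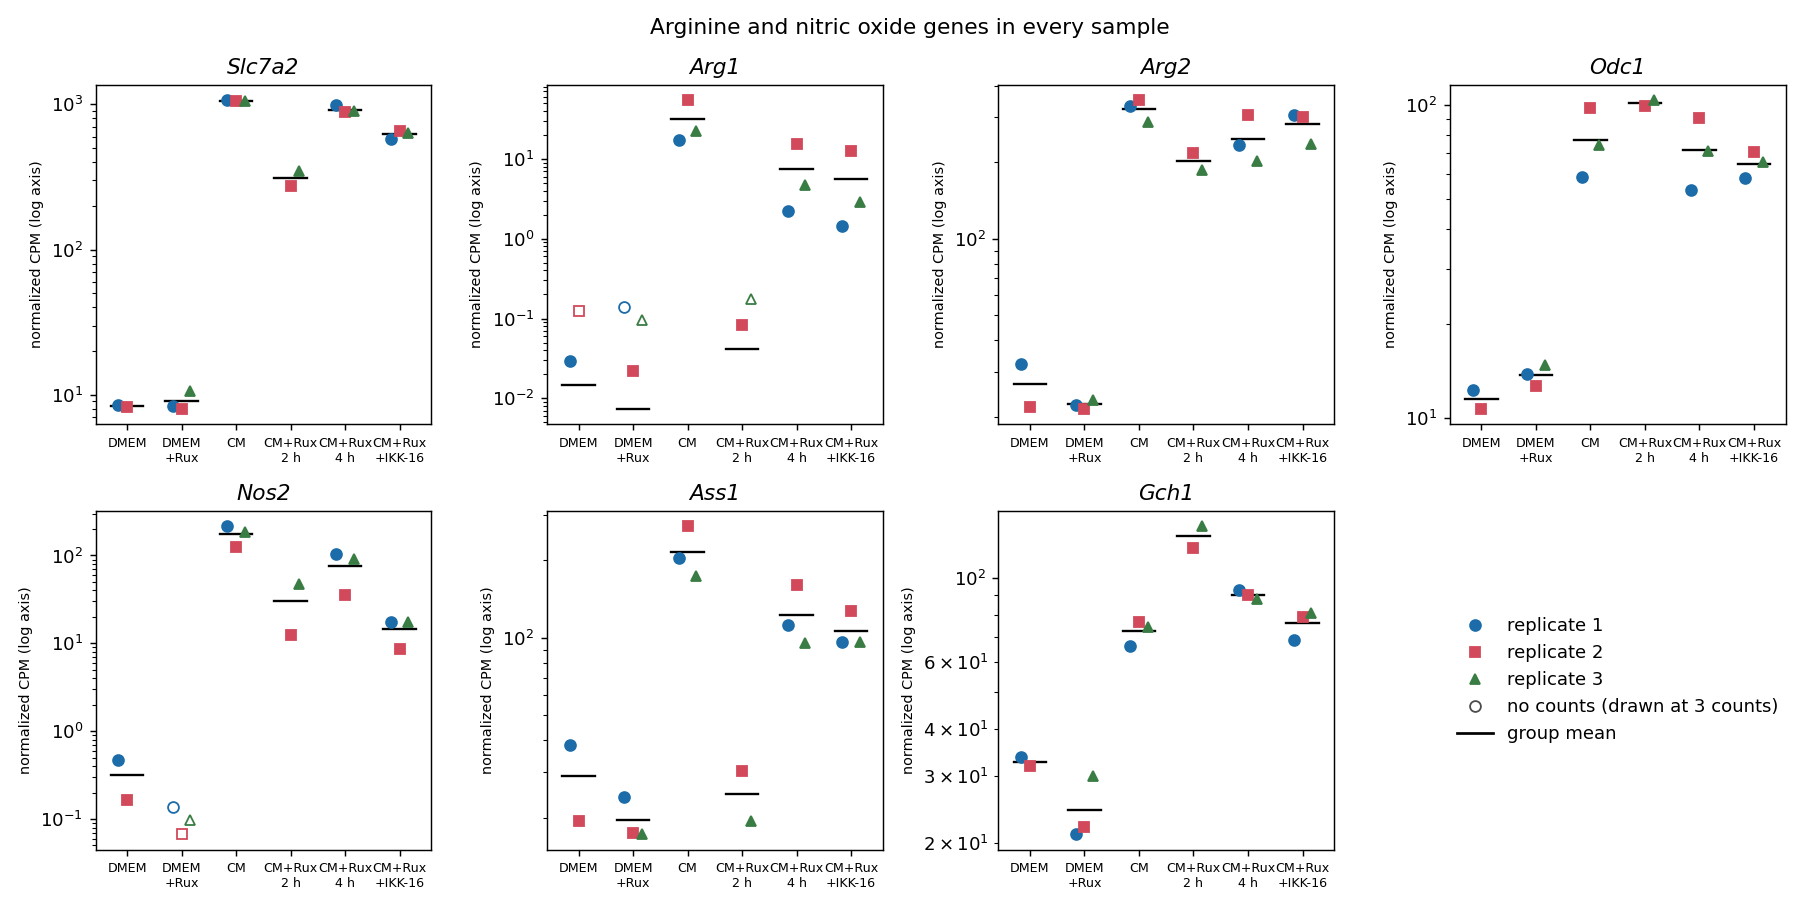
Normalized CPM (log axis) of the 7 genes in each of the 16 samples, by group; symbols and colors mark the replicate number, black lines are group means, and open symbols are samples with no counts, drawn at the level of 3 counts. All 7 genes are higher in CM than in DMEM, and Gch1 and Odc1 have their highest group mean in CM + Rux (2 h).

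First, CM was compared with DMEM, which asks how macrophages respond to soluble factors of the tumor cells. All 7 members were called higher in CM, with no overlap between the groups, where 45% of all genes tested were called in either direction and 20.9% were called higher. The members were chosen with earlier results of these data known, so their count beside these shares is a description. Arg1 and Nos2 passed the filter on low counts only through samples in CM. Their calls against the DMEM groups, here and below, are therefore descriptions. The changes ranged from 2.20-fold for Gch1 to over 100-fold for Slc7a2, Nos2 and Arg1. Each of the 7 was called under all 30 alternative settings and left-out samples. Among the settings, an adjusted p below 0.1, an unadjusted p below 0.05 and no fold threshold only loosen the rule on the same fit. These looser thresholds could not remove a call.

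Slc7a2 (ENSMUSG00000031596, GRCm38 chr8:40862396-40922308, plus strand) was at 1066, 1052 and 1059 CPM in CM and at 8.53 and 8.22 CPM in DMEM. The 3 CM samples were nearly equal and far above both DMEM samples. The difference was 126-fold, a log2 fold change of 6.98 ± 0.16 (SE, adjusted p = 4.81e-12). Slc7a1, which encodes the constitutive arginine transporter CAT1, was at 38.9 ± 9.84 CPM in CM (n = 3) and 40.1 ± 4.00 CPM in DMEM (n = 2) and was not called; it was chosen for its role as the counterpart of Slc7a2, after values were seen.

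Arg1 (ENSMUSG00000019987, chr10:24915221-24927484, minus strand) was at 17.1, 54.1 and 22.2 CPM in CM. In DMEM it had 1 count in one sample and 0 in the other, which allows up to 0.123 CPM there (3 counts). The ratio of CM to DMEM was 2045, with a 95% counting interval of 367 to 80809, and this interval covers counting error only. The log2 fold change fitted by edgeR's quasi-likelihood test was 10.53 ± 1.79 (SE, adjusted p = 0.000165). Replicate 2 was the highest CM sample, and the SD of 20.0 CPM was large beside the mean of 31.1 CPM (n = 3).

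Arg2 (ENSMUSG00000021125, chr12:79130777-79156301, plus strand) was at 334, 350.3 and 288 CPM in CM and at 32.1 and 21.9 CPM in DMEM. Unlike Arg1, it was readily detected in DMEM. It rose 12.0-fold, with a log2 fold change of 3.58 ± 0.21 (SE, adjusted p = 1.4e-08).

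Odc1 (ENSMUSG00000011179, chr12:17544794-17551505, plus strand) was at 58.8, 97.9 and 74.7 CPM in CM and at 12.3 and 10.7 CPM in DMEM. All CM samples lay above both DMEM samples, and the log2 fold change was 2.75 ± 0.23 (SE, adjusted p = 3.54e-07). Odc1 has 12 near-identical copies of 91.8 to 97.8% identity in GENCODE M21, of which Gm7993, a processed pseudogene, carried 2.68 to 24.0 CPM, so reads can be split between them and its level is uncertain. With the counts of all copies added, the log2 fold change was 2.27.

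Nos2 (ENSMUSG00000020826, chr11:78920787-78960254, plus strand) was at 216, 125 and 185 CPM in CM. In DMEM it was at 0.472 and 0.164 CPM, which are 16 and 4 counts. The log2 fold change was 8.99 ± 0.95 (SE, adjusted p = 6.28e-06). Nos2 was thus close to silent in DMEM, and replicate 2, the highest CM sample for Arg1, was the lowest for Nos2.

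Ass1 (ENSMUSG00000076441, chr2:31470207-31520672, plus strand) was at 204, 272 and 174 CPM in CM and at 38.5 and 19.4 CPM in DMEM, a log2 fold change of 2.90 ± 0.33 (SE, adjusted p = 5.46e-06). The groups did not overlap. A processed pseudogene, Gm5424, matches Ass1 at 99.5% over 1240 bases and carried 6.34 to 66.0 CPM, so the level of Ass1 is uncertain too. With its counts added, the log2 fold change was 2.78.

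Gch1 (ENSMUSG00000037580, chr14:47153895-47189413, minus strand) was at 66.0, 76.6 and 74.1 CPM in CM and at 33.7 and 31.9 CPM in DMEM. This was the smallest of the 7 changes, 2.20-fold, with a log2 fold change of 1.14 ± 0.13 (SE, adjusted p = 6.47e-06).

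The sequence before the start of Gch1 and Odc1 is shown for 2 reasons. These genes had their highest group mean in the 2 h samples described below, and IKK-16 targets the pathway of NF-κB. RefSeq windows (GRCm38.p6, 250 bases before the start) were found for 3 members, Gch1, Odc1 and Ass1, and bases inside the annotated Ensembl gene were left out. Capitals mark matches on either strand to the NF-κB consensus, the CRE core TGACG, the CCAAT box and the GC box GGGCGG. The Gch1 window is chr14:47189414-47189663 (minus strand) and the Odc1 window chr12:17544623-17544793 (plus strand).
Gch1: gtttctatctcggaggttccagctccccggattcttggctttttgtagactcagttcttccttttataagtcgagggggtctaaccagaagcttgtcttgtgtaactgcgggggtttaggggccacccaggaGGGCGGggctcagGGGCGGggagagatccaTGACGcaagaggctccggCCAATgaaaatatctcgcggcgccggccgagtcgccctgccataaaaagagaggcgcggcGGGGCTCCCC
Odc1: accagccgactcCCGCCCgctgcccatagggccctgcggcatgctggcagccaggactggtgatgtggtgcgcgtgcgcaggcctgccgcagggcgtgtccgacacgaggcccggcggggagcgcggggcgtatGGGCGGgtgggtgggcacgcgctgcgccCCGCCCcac
The Gch1 window ends in a match to the NF-κB consensus at -10 to -1 from the start, which 3.9% of 32851 RefSeq windows of the same length hold. Upstream it holds a CCAAT box at -70 to -66 (in 33.8% of windows), a CRE core at -88 to -84 (17.8%) and 2 GC boxes at -105 to -100 and -118 to -113 (32.7%). The printed Odc1 bases hold 3 GC boxes and no match to the NF-κB consensus. None of the 3 windows held the GAS motif TTCNNNGAA (7.02% of windows), the ISRE consensus (2.98%) or the AP-1 motif TGANTCA (6.75%). A match describes the letters and is not evidence of binding.

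The other genes of arginine metabolism did not rise as a group. Of 52 genes in a list of arginine transport, citrulline recycling, nitric oxide, BH4, proline, polyamine and creatine metabolism, 38 could be tested. This list, like the members, was chosen with earlier results of these data known. In CM against DMEM, 9 were higher and 10 lower, and the median log2 fold change was -0.054 where that of all genes tested was -0.0050. The largest increases were in Smox, which encodes spermine oxidase, from 59.3 ± 12.1 CPM (n = 2) to 600.1 ± 192 CPM (n = 3, log2 fold change 3.34, adjusted p = 1.49e-05) and Azin2, an antizyme inhibitor (log2 fold change 1.73, adjusted p = 0.00762). The largest decreases were in Nostrin, a nitric oxide synthase traffic protein, from 15.6 ± 0.474 to 5.69 ± 1.53 CPM (log2 fold change -1.43, adjusted p = 6.58e-05) and in Prodh, which encodes proline dehydrogenase, from 5.35 ± 0.332 to 2.14 ± 0.301 CPM (log2 fold change -1.32, adjusted p = 0.000296).

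Of the 5 BH4 genes tested besides Gch1, 3 were lower in CM and none was higher, where 24.1% of all genes were called lower. These were Pts (-0.99, adjusted p = 0.000102), Spr (-0.59, adjusted p = 0.000625) and Qdpr (-0.65, adjusted p = 6.78e-06), in log2 fold change. Pts and Spr encode the steps that follow GTP cyclohydrolase in BH4 synthesis, and Qdpr encodes an enzyme that regenerates BH4. They were named after their values were seen. Among 15 polyamine genes, 6 were higher and 2 lower, among 6 proline and ornithine genes none was higher and 2 were lower, and among 5 transport genes 2 were higher and 1 lower.

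**Figure D2:**
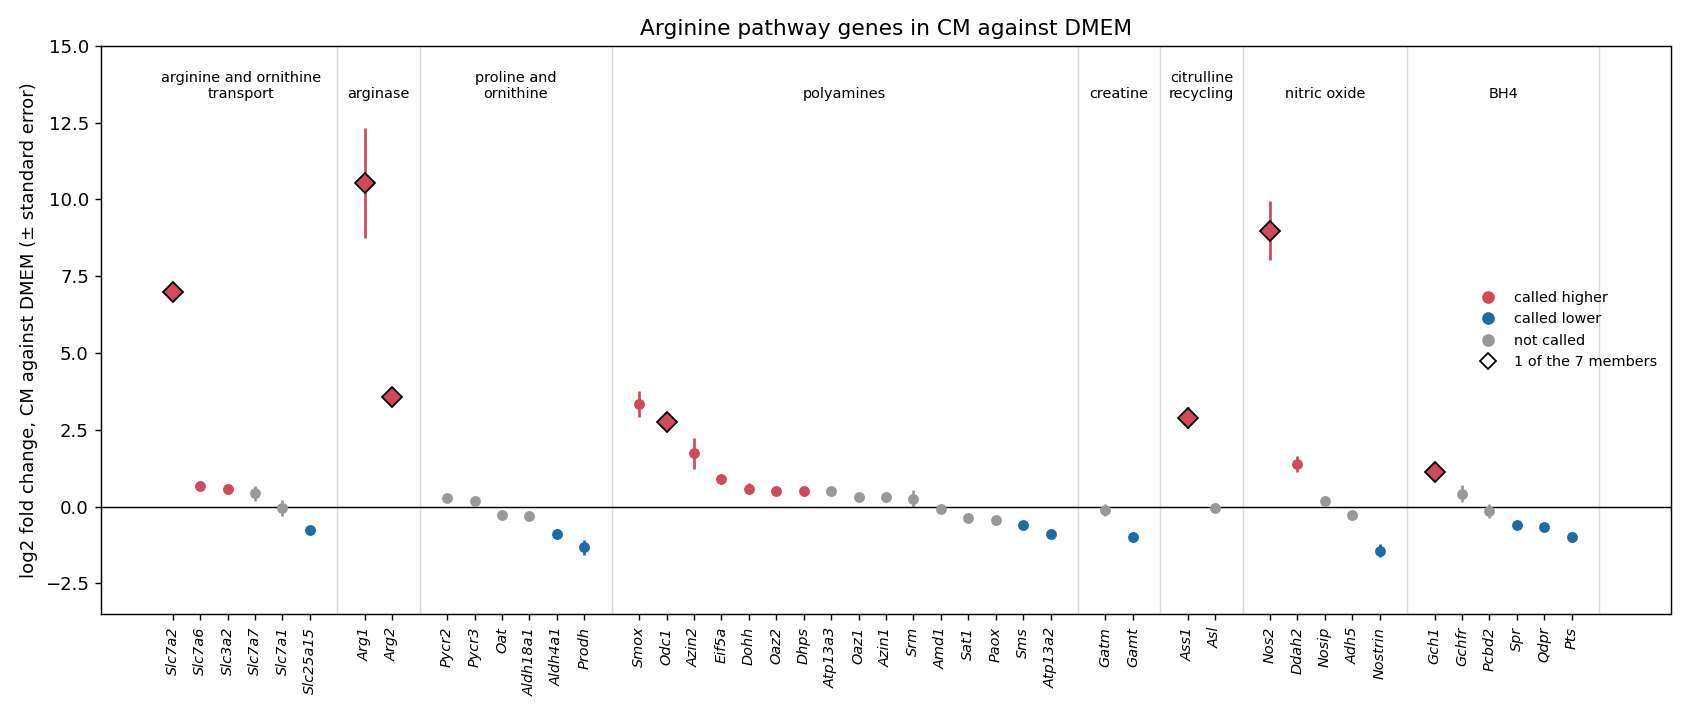
Log2 fold change (± standard error) in CM against DMEM for the 7 members (diamonds) and 38 further genes of arginine metabolism (circles), grouped by role; red and blue mark genes called higher and lower. All 7 members are above 0, and Gch1 is the only called increase among the BH4 genes.

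Next, CM + Rux (4 h) was compared with CM, which asks what depends on JAK1/2 activity when macrophages meet CM. None of the 7 members was called without the replicate number, where 3.33% of all genes were called. At an unadjusted p below 0.05 with the same fold threshold 3 were past it, DESeq2 and edgeR's likelihood ratio test called 1, Ass1, and limma-voom called 0. With the replicate number in the model, 3 members, Arg1, Nos2 and Ass1, were called lower, where 6.02% of all genes were called.

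Arg1 was at 2.24, 15.3 and 4.73 CPM in CM + Rux (4 h), below the 3 CM samples without overlap. Within replicate numbers 1, 2 and 3 it fell 7.65-, 3.53- and 4.69-fold. The log2 fold change was -2.29 ± 0.21 with the replicate number (SE, adjusted p = 1.02e-05) and -2.05 ± 0.72 without it (adjusted p = 0.144). Without CM + Rux (4 h) replicate 2, the highest of its group, the model lacking the number gave -3.22 (adjusted p = 0.0328).

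Nos2 was at 103, 35.7 and 91.9 CPM in CM + Rux (4 h), also without overlap with CM. It fell 2.098-, 3.50- and 2.01-fold within numbers. The log2 fold change was -1.31 ± 0.18 with the replicate number (adjusted p = 0.000629) and -1.19 ± 0.47 without it (adjusted p = 0.232).

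Ass1 was at 112, 161 and 95.5 CPM, again below every CM sample, and fell 1.82-, 1.69- and 1.82-fold within numbers. Its log2 fold change was -0.82 ± 0.21 with the number (adjusted p = 0.0218) and -0.82 ± 0.26 without it (adjusted p = 0.109), and -1.06 (adjusted p = 0.0481) without CM + Rux (4 h) replicate 2. Arg2, Slc7a2 and Odc1 were also lower in every replicate number, by 1.15- to 1.43-fold, 1.09- to 1.19-fold and 1.04- to 1.10-fold. None of these was called in either model. Odc1 changed sign without CM replicate 2 (0.11) or CM + Rux (4 h) replicate 1 (0.074).

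Gch1 went the other way. It was at 92.6, 89.9 and 88.1 CPM, above every CM sample, and 1.40-, 1.17- and 1.19-fold higher within numbers. The log2 fold change of 0.32 ± 0.09 had an adjusted p of 0.0357 with the replicate number and 0.156 without it, and lay under the fold threshold in both models. Slc7a2 was at 982, 883 and 899 CPM, just below the CM samples, with a log2 fold change of -0.20 (95% interval -0.42 to 0.02, adjusted p = 0.383). Arg2 (-0.39, interval -0.73 to -0.05, adjusted p = 0.233) and Odc1 (-0.10, interval -0.49 to 0.29, adjusted p = 0.898) overlapped with CM.

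Of the 38 pathway genes, none was called in this comparison without the replicate number, 2 were past an unadjusted p of 0.05 with the fold threshold, and neither DESeq2 nor limma-voom called any. With the number, 1 was called: Smox was lower (log2 fold change -0.90, adjusted p = 0.0146, against 0.193 without the number). It was at 327 ± 134 CPM in CM + Rux (4 h) and 600.1 ± 192 CPM in CM (n = 3 each).

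**Figure D3:**
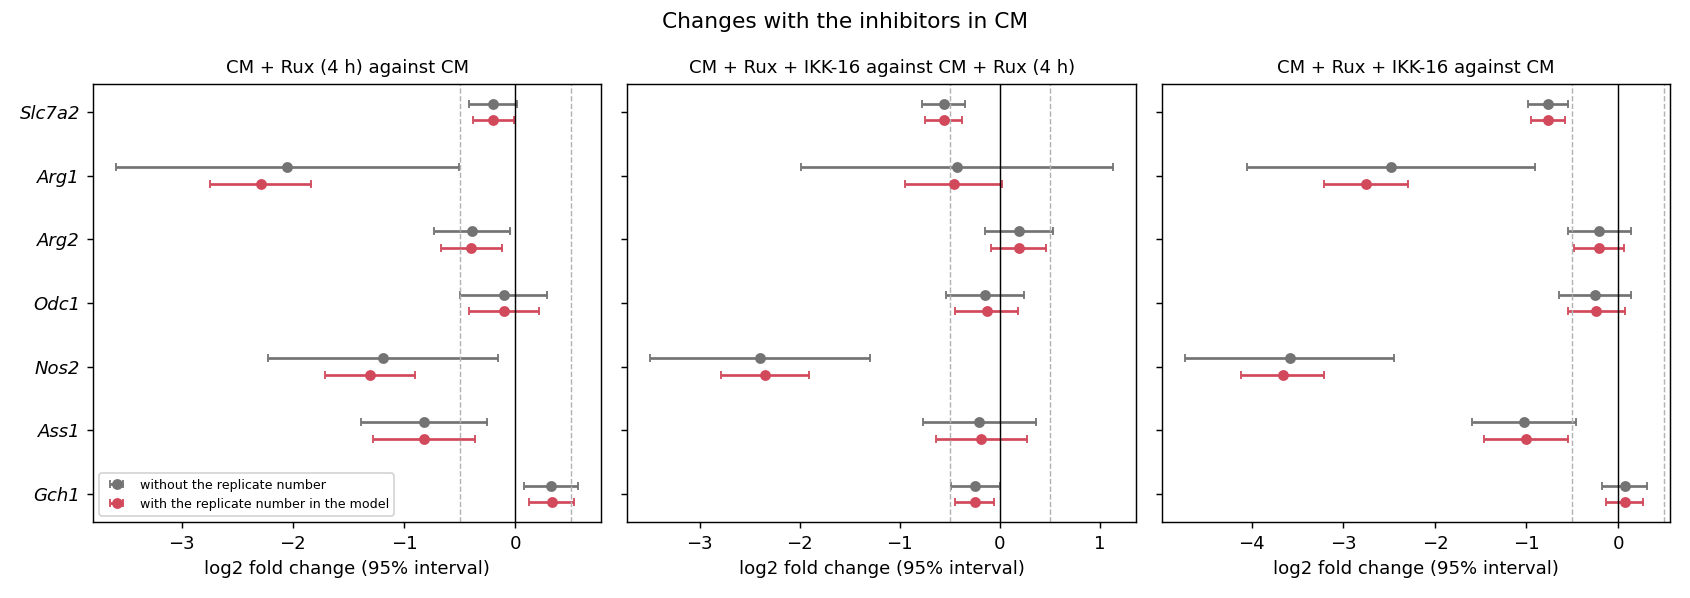
Log2 fold changes of the 7 genes with 95% intervals for the 3 comparisons of inhibitors in CM, without (gray) and with (red) the replicate number in the model; dashed lines mark the fold threshold of 0.5. Intervals of Arg1 and Nos2 narrow most with the number, and IKK-16 lowers Nos2 and Slc7a2.

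IKK-16 was then added to CM and ruxolitinib, which asks what depends on the IκB kinases once JAK1/2 is inhibited. Of the 7 members, 2 were called lower, Nos2 and Slc7a2, where 7.74% of all genes were called in either direction and 3.66% lower. Both calls held under all 30 alternatives, including the looser thresholds, which could not remove a call. The fibroblast markers were also lower, at 15.6 to 28.1 CPM against 31.6 to 33.5 CPM in CM + Rux (4 h), and their part in the results was not tested.

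Nos2 was at 17.4, 8.53 and 17.7 CPM in CM + Rux + IKK-16. Every sample was below the lowest CM + Rux (4 h) sample, and within replicate numbers Nos2 fell 5.92-, 4.18- and 5.19-fold. The log2 fold change was -2.40 ± 0.50 (SE, adjusted p = 0.00858). Slc7a2 was at 579.7, 655 and 636 CPM, below all CM + Rux (4 h) samples, with a log2 fold change of -0.56 ± 0.10 (adjusted p = 0.00286). This is 1.48-fold, and close to the fold threshold.

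The remaining members were not called after IKK-16. Arg1 was at 1.44, 12.7 and 2.88 CPM, with a log2 fold change of -0.43 and a wide interval of -1.99 to 1.13 (adjusted p = 0.752). Ass1 was at 96.4, 127 and 96.2 CPM (-0.20, interval -0.77 to 0.36), Odc1 at 58.3, 70.8 and 65.5 CPM (-0.15, interval -0.54 to 0.24) and Arg2 at 306, 302 and 237 CPM (0.19, interval -0.15 to 0.53). Gch1 was at 68.7, 79.0 and 80.9 CPM, below all CM + Rux (4 h) samples, with a log2 fold change of -0.24 (interval -0.49 to 0.00, adjusted p = 0.175). Of the pathway genes, Paox, a polyamine oxidase, was called (log2 fold change 1.01, adjusted p = 0.000191), from 5.42 ± 0.713 to 10.99 ± 0.834 CPM (n = 3 each).

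Set against CM alone, both inhibitors together lowered 4 members, Arg1, Nos2, Slc7a2 and Ass1, where 12.7% of all genes were called in either direction and 6.13% lower. The same CM + Rux + IKK-16 samples enter this and the previous comparison. Nos2 had a log2 fold change of -3.59 ± 0.52 (adjusted p = 0.000539), which is 12.0-fold, and Slc7a2 one of -0.76 ± 0.10 (adjusted p = 0.000163). Arg1 (-2.48 ± 0.73, adjusted p = 0.026) and Ass1 (-1.02 ± 0.26, adjusted p = 0.0134) were called in this model but lost the call with some samples left out. Without CM replicate 2, CM + Rux + IKK-16 replicate 1 or CM + Rux + IKK-16 replicate 3, neither was called without the replicate number, with adjusted p of 0.126, 0.0905 and 0.0949 for Arg1 and 0.0639, 0.0579 and 0.053 for Ass1. Arg1 was also not called with DESeq2 (adjusted p = 0.0583) or with the compared groups alone (adjusted p = 0.0591). With the replicate number Arg1 had a log2 fold change of -2.75 (adjusted p = 8.2e-07) and Ass1 one of -1.01 (adjusted p = 0.00241), and within numbers they fell 11.9-, 4.26- and 7.70-fold and 2.11-, 2.14- and 1.81-fold. Gch1 (0.08, interval -0.17 to 0.32), Arg2 (-0.20, interval -0.54 to 0.14) and Odc1 (-0.25, interval -0.64 to 0.14) were not called. Of the pathway genes, 1 was called, Paox, which was higher (log2 fold change 0.63, adjusted p = 0.00177). With the replicate number 4 pathway genes were called, where 15.6% of all genes were: Prodh (0.59, adjusted p = 0.0132) was higher as well, and Smox (-0.86, adjusted p = 0.00695) and Azin2 (-0.86, adjusted p = 0.0173) were lower, named after their values were seen.

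Arg1 and Nos2 also varied between replicate numbers, in opposite ways. In each of CM, CM + Rux (4 h) and CM + Rux + IKK-16, the sample with number 2 had the highest Arg1 and the lowest Nos2 of its group. Per length, the ratio of Nos2 to Arg1 was 6.34, 1.16 and 4.18 for numbers 1, 2 and 3 in CM, 23.1, 1.17 and 9.75 in CM + Rux (4 h), and 6.06, 0.337 and 3.08 in CM + Rux + IKK-16. In CM + Rux + IKK-16 replicate 2, the level of Arg1 per length was therefore above that of Nos2, which was so in no other sample of these 3 groups. Ass1 and Odc1 were also highest in number 2 in all 3 groups. These ratios are a description with no test.

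**Figure D4:**
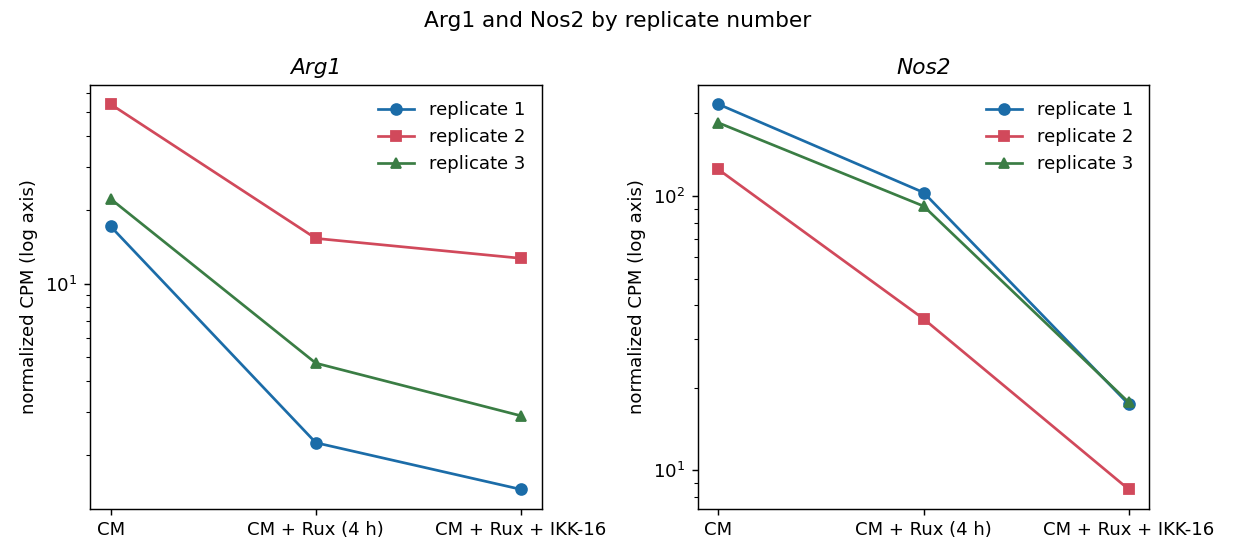
Normalized CPM (log axis) of Arg1 and Nos2 in CM, CM + Rux (4 h) and CM + Rux + IKK-16, with lines joining samples of the same replicate number. Replicate 2 lies highest for Arg1 and lowest for Nos2 in all 3 groups, and every line falls from CM to CM + Rux (4 h).

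In DMEM, where no tumor factors were present, ruxolitinib changed no member by the threshold, where 0.97% of all genes were called. No member was past an unadjusted p of 0.05 with the fold threshold and limma-voom called 0, while DESeq2 and the likelihood ratio test each called 1, Nos2. Nos2 had 16 and 4 counts in DMEM and 0 in all 3 DMEM + Rux samples, at least 3.16-fold lower when the floor of 3 counts per library is used. Arg1 was at or under the floor in both groups. Gch1 was at 21.1, 22.0 and 30.1 CPM in DMEM + Rux, below both DMEM samples, with a log2 fold change of -0.43 ± 0.13 (adjusted p = 0.324). Without DMEM + Rux replicate 3, its highest sample, it was -0.61 (adjusted p = 0.00754). Slc7a2 (0.10, interval -0.18 to 0.38), Arg2 (-0.28, interval -0.67 to 0.12), Ass1 (-0.58, interval -1.23 to 0.08) and Odc1 (0.25, interval -0.23 to 0.73) each had an adjusted p of 1. None of the 38 pathway genes was called, also at an unadjusted p of 0.05 with the fold threshold and with DESeq2 or limma-voom.

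The effect of ruxolitinib in CM was tested against that in DMEM. No member was called, where 0.412% of all genes were called. At an unadjusted p below 0.05 with the fold threshold 1 member, Gch1, was past it, DESeq2 called Gch1, the likelihood ratio test called Gch1 and Nos2, and limma-voom called 0. For Gch1 the 2 effects differed by 0.75 ± 0.17 on the log2 scale (adjusted p = 0.0816). With the replicate number it was called at 0.82 ± 0.15 (adjusted p = 0.00681), where 3.59% of all genes were called. DMEM and DMEM + Rux share only 2 replicate numbers, which cannot establish pairing. No difference is given for Arg1 (adjusted p = 0.999) and Nos2 (adjusted p = 0.878), which had few or no counts in DMEM. For Slc7a2, Arg2, Ass1 and Odc1 the differences were -0.30, -0.11, -0.24 and -0.35, with adjusted p of 0.667 to 0.99. None of the 38 pathway genes was called, 2 were past an unadjusted p of 0.05 with the fold threshold, DESeq2 called 1, limma-voom 0, and the model with the replicate number called 1, Paox (-0.70, adjusted p = 0.0208).

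CM + Rux (2 h) was compared with DMEM. The 5 dendritic cell markers summed to 8.58 to 12.7 CPM in these samples, 1.31 to 1.83 CPM in DMEM and 2.21 to 2.32 CPM in CM + Rux (4 h). Zbtb46 (0.646 to 12.3 CPM over all samples) carried this sum, the other 4 were at 0.552 CPM or less in every sample, and their part in the results was not tested. In CM + Rux (2 h) against DMEM, 5 members were called higher, where 37.3% of all genes were called in either direction and 16.8% higher. Of these, Nos2 passed the filter only through samples in CM, so its call is a description. Arg2 was at 217 and 187 CPM (log2 fold change 2.90, adjusted p = 1.4e-07), Slc7a2 at 276 and 345 CPM (5.21, adjusted p = 1.2e-10) and Nos2 at 12.3 and 47.8 CPM (6.41, adjusted p = 0.000169) in replicates 2 and 3. Odc1 was at 98.9 and 103 CPM (3.13, adjusted p = 2.74e-07) and Gch1 at 120.1 and 137 CPM (1.97, adjusted p = 1.59e-07). For these 2 genes the 2 h samples were above every sample of every other group. For Odc1 the margin was small, 98.9 CPM in CM + Rux (2 h) replicate 2 against 97.9 CPM in CM replicate 2. With the counts of the Odc1 copies added, it was 125.27 CPM in CM + Rux (2 h) replicate 2 and 125.36 CPM in CM replicate 2, so the groups overlapped.

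Ass1 and Arg1 differed from the other 5. Ass1 was at 30.2 and 19.3 CPM in CM + Rux (2 h), overlapping with DMEM (log2 fold change -0.22, interval -0.94 to 0.51, adjusted p = 0.617). When replicate 2 of every group was left out, only CM + Rux (2 h) replicate 3 and DMEM replicate 1 remained in these groups. That setting, added after seeing the data, gave -1.004, and leaving out DMEM replicate 1 gave 0.37. Arg1 had 3 counts in replicate 2 and 0 in replicate 3 at 2 h, that is 0.0828 CPM and a limit of up to 0.175 CPM. Its near absence at 2 h was part of how the genes were chosen and is given as a description. Of the pathway genes, 6 were higher and 5 lower at 2 h. Smox (1.97, adjusted p = 0.0015) and Slc7a7, a transporter of cationic amino acids (1.37, adjusted p = 0.000989), rose most, and Aldh18a1, which encodes the first step of proline synthesis (-1.13, adjusted p = 0.000103), and Paox (-0.91, adjusted p = 0.000168) fell most, in log2 fold change.

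CM + Rux (4 h) was compared with CM + Rux (2 h). What the label of 2 h refers to is not given in the sources used here, so the comparison is between these labels. Apart from Arg1, 3 of the other 6 members were called, where 23.3% of all genes were called. Arg1 had 808 counts in the 4 h group and 3 in the 2 h group, a ratio of 147 with a counting interval of 50.0 to 712, and is given without a test. Slc7a2 (log2 fold change 1.57 ± 0.12, adjusted p = 7.39e-07) and Ass1 (2.29 ± 0.33, adjusted p = 0.000128) were higher at 4 h, 2.97- and 4.90-fold, without overlap. Gch1 was lower at 4 h (-0.51 ± 0.13, adjusted p = 0.00596), 1.42-fold, and lost the call without CM + Rux (2 h) replicate 3 (-0.41, adjusted p = 0.0746) and, by the fold threshold, without CM + Rux (4 h) replicate 3 (-0.49). Nos2 was 2.61-fold higher with an adjusted p of 0.0714, overlapping because CM + Rux (4 h) replicate 2 lay below CM + Rux (2 h) replicate 3. It was called without CM + Rux (2 h) replicate 3 (2.64, adjusted p = 0.013) or CM + Rux (4 h) replicate 2 (1.74, adjusted p = 0.0224).

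Odc1 was lower at 4 h in every sample (-0.49, interval -0.92 to -0.06) but not called (adjusted p = 0.0682), and was called (-0.70, adjusted p = 0.0136) without CM + Rux (4 h) replicate 2. Arg2 overlapped (0.29, interval -0.09 to 0.68, adjusted p = 0.214). Of the pathway genes 1 was higher at 4 h, Nosip, which encodes a nitric oxide synthase interacting protein (0.77, adjusted p = 4.85e-05), and 7 were lower, most of all Nostrin (-1.55, adjusted p = 0.000109) and Gatm, which encodes the arginine-consuming first step of creatine synthesis (-0.91, adjusted p = 0.00231).

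With ruxolitinib present in both, CM (4 h) against DMEM gave 7 members called higher, where 47.3% of all genes were called in either direction and 22.3% higher. Here too, Arg1 and Nos2 passed the filter only through samples in CM, so their calls are descriptions. Nos2 had 7103 counts against 0, at least 762-fold higher, and Arg1 808 counts against 1, a ratio of 802 with a counting interval of 144 to 31730. Slc7a2 was 102-fold, Arg2 11.1-fold, Ass1 6.30-fold, Odc1 5.25-fold and Gch1 3.70-fold higher, with adjusted p from 5.53e-13 (Slc7a2) to 0.00031 (Arg1). The 7 calls held under all 30 alternatives, including the looser thresholds, which could not remove a call. Of the pathway genes 7 were higher and 12 lower, led by Smox (2.69, adjusted p = 1.32e-05) and Azin2 (1.41, adjusted p = 0.0105), and by Nostrin (-1.75, adjusted p = 3.35e-06) and Paox (-1.14, adjusted p = 1.38e-06).

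Ordered by group mean, the members fell into different patterns, and neighbours in the order were compared in the model without the replicate number. Arg1, Arg2, Nos2, Slc7a2 and Ass1 were highest in CM, and Odc1 and Gch1 in CM + Rux (2 h). For Arg1 the order was CM, CM + Rux (4 h), CM + Rux + IKK-16 and then the 3 groups at or under 3 counts per library. The first 3 groups were not called different between neighbours. The next step, from CM + Rux + IKK-16 to CM + Rux (2 h), was called. It is a description, as the near absence of Arg1 at 2 h was part of how the genes were chosen. For Slc7a2 the order was CM, CM + Rux (4 h), CM + Rux + IKK-16, CM + Rux (2 h), then both DMEM groups. Neighbours in that order were called different except CM and CM + Rux (4 h), and DMEM + Rux and DMEM. For Nos2 the order was CM, CM + Rux (4 h), CM + Rux (2 h), CM + Rux + IKK-16, DMEM and DMEM + Rux, and 1 step was called, from CM + Rux + IKK-16 to DMEM (adjusted p = 0.000579). Ass1 had its single called step between CM + Rux + IKK-16 and DMEM (adjusted p = 0.000266), Arg2 between CM + Rux (2 h) and DMEM, and Odc1 between CM + Rux + IKK-16 and DMEM + Rux (adjusted p = 4.38e-07). Odc1 did not differ by this test between CM + Rux (2 h) and CM (0.39, adjusted p = 0.136). Gch1 had 2 called steps, between CM + Rux (2 h) and CM + Rux (4 h) and between CM and DMEM. For the pairs not described above, the share of all genes called was 33.3% between CM + Rux + IKK-16 and DMEM, 37.4% between CM + Rux + IKK-16 and DMEM + Rux, 26.3% between CM + Rux (2 h) and CM + Rux + IKK-16, 40.1% between CM + Rux (2 h) and DMEM + Rux, and 28% between CM and CM + Rux (2 h).

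The genes most like each member, up to 3, were ranked by Pearson's r of log2(CPM + 1) over the 16 samples, out of 11558 genes averaging above 1 CPM. The samples share treatments and depth, so these values are descriptions. They were Pdpn (0.996), Cxcl3 (0.995) and Eva1b (0.995) for Slc7a2, Pmepa1 (0.996), Csf2rb (0.994) and Luzp1 (0.993) for Arg2, and Smurf2 (0.992), Mmp13 (0.982) and Hnrnpf (0.979) for Nos2. For Arg1 they were Tdgf1-ps1 (0.985), Elk1 (0.967) and Isca1 (0.966), and for Gch1 Arl5c (0.989) and Ccrl2 (0.983). Ass1 was followed by Pecam1 (0.985), its own pseudogene Gm5424 (0.983) and Ppa1 (0.983), and Odc1 by its pseudogene Gm7993 (0.995), S100a10 (0.993) and Tagln2 (0.992).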

How the data were processed

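The members and the gene lists were chosen with earlier results of these data known. Raw counts per gene were deposited by the authors in 1 table, made, per the submitters' processing notes, with Trimmomatic 0.33, HISAT2 2.1.0 and featureCounts 1.6.2 on GRCm38 with strand-specific counting. Symbols came from a supplied table of Ensembl IDs, and 346 of 55487 genes had none (at most 0.0459% of counts). Genes above 1 CPM in 2 or more samples were kept, and all 16 samples were fitted as 6 groups with edgeR 4.0.16 (R 4.3.3) after relative log expression scaling, with Benjamini-Hochberg adjustment. The fit was tested on simulated data. DESeq2 1.42.0, limma 3.58.1 (voom), other filters, other scaling and left-out samples were alternatives. Samples were grouped by their titles, and nothing in the labels says whether replicates came from separate animals or cultures, so p-values may measure technical spread. Replicates differed beyond counting noise (chi-square per degree of freedom 13.2 to 50.3 over 14 pairs).

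Replicate numbers pair the samples where 3 numbers are shared: the correlation of deviations from group means in same-numbered samples was 0.574 to 0.756 (CM + Rux (4 h) and CM), 0.621 to 0.735 (CM + Rux + IKK-16 and CM + Rux (4 h)), 0.507 to 0.642 (CM + Rux + IKK-16 and CM) and 0.159 to 0.39 (CM + Rux (4 h) and DMEM + Rux). All members are named in every comparison, and of the pathway list the 2 called genes with the largest increase and the 2 with the largest decrease. Near-identical copies were found with blastn 2.17.0 (at least 90% identity over 500 bases). Some genes are not reported here.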

Additional observations from a re-analysis of the deposited data

Results flagged for a closer look

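Gch1 was flagged because its samples lay in opposite directions with ruxolitinib in CM and in DMEM, without overlap. This separation is the rule of the flag and no added support. In edgeR's quasi-likelihood test without the replicate number, neither effect was called. The log2 fold change was 0.32 in CM (adjusted p = 0.156) and -0.43 in DMEM (adjusted p = 0.324). All 3 CM + Rux (4 h) samples (88.1 to 92.6 CPM) were above all 3 CM samples (66.0 to 76.6 CPM), and all 3 DMEM + Rux samples (21.1 to 30.1 CPM) were below both DMEM samples (31.9 and 33.7 CPM). The difference of the effects was 0.75 on the log2 scale and was not called, with an adjusted p of 0.0816 (edgeR's quasi-likelihood test, 95% interval 0.37 to 1.12). Including the replicate number gave 0.82 (adjusted p = 0.00681), and without DMEM + Rux replicate 3 it was 0.92 (adjusted p = 0.0129). DMEM and DMEM + Rux share only 2 replicate numbers, which cannot establish pairing. The dose and time of DMEM + Rux are not given in the sources used here, so medium and dosing cannot be told apart.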

How the results depend on the processing

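Of 1704 alternatives to 57 member fold changes, over 30 settings of which 16 left out 1 sample, 1634 kept their direction and side of the threshold, 41 gained a call, 13 lost one and 16 changed sign. The looser thresholds reuse the main fit, so under them no call could be lost and no sign could change. No fold change that had been called changed sign, and the cause of the changes was not tested. The number of members called in CM + Rux (4 h) against CM was 0, but 3 with no filter on low counts, the replicate block, the block in the compared groups alone, an unadjusted p or replicate 2 of every group left out (added after seeing the data), 1 with the likelihood ratio test or DESeq2, and 0 to 3 with samples left out. For CM + Rux + IKK-16 against CM it was 4, and 2 to 4 with samples left out. For DMEM + Rux against DMEM it was 0, and 0 to 1 with samples left out. It was 1 with the block in the compared groups alone, where the gene was Gch1 (-0.61, adjusted p = 0.00105). It was also 1 with the likelihood ratio test or DESeq2, where the gene was Nos2. For the difference of ruxolitinib effects it was 0, but 1 with no filter, the block in either set of samples, DESeq2, an adjusted p below 0.1 or an unadjusted p, 2 with the likelihood ratio test, and 0 to 1 with samples left out. Leaving out samples gave 3 to 6 members for CM + Rux (4 h) against CM + Rux (2 h), where it was 4, and 5 to 6 for CM + Rux (2 h) against DMEM, where it was 5. The 4 members called in CM + Rux (4 h) against CM + Rux (2 h) include Arg1. Its near absence at 2 h was part of how the genes were chosen, so its call there is a description. The 57 fold changes also include Arg1 in CM + Rux (4 h) against CM + Rux (2 h). A sample left alone in its group was assumed to vary like the other groups.

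With the replicate block in CM + Rux (4 h) against CM + Rux (2 h), where 2 shared numbers cannot establish pairing, Nos2 was called (1.27, adjusted p = 0.000814) and Gch1 was under the fold threshold (-0.46). Nos2 was also called between CM + Rux (2 h) and CM + Rux + IKK-16 with the block (1.08, adjusted p = 0.00232, against 0.161 without it). Beside these and the changes given with the results, the block changed no other call of a member. The block in the compared groups alone was not run for CM + Rux (2 h) against DMEM, where no residual degrees of freedom remain. Pathway genes called ranged over the settings and left-out samples from 0 to 3 in CM + Rux (4 h) against CM (0), 1 to 2 after IKK-16 (1), 1 to 10 in CM + Rux + IKK-16 against CM (1), 5 to 14 in CM + Rux (4 h) against CM + Rux (2 h) (8), 10 to 17 in CM + Rux (2 h) against DMEM (11) and 0 to 2 for the difference of effects (0).

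Signs changed with samples left out for Odc1 in CM + Rux (4 h) against CM (-0.31 to 0.11), for Arg1 (-1.82 to 0.74), Ass1 (-0.36 to 0.036) and Odc1 (-0.33 to 0.056) after IKK-16, for Arg2 (-0.52 to 0.028), Slc7a2 (-0.035 to 0.18) and Ass1 (-0.98 to 0.0060) in DMEM + Rux against DMEM, for Ass1 at 2 h against DMEM (-0.62 to 0.37), and for Arg2 (-0.42 to 0.13) and Ass1 (-0.83 to 0.16) in the difference of effects. Slc7a2 in DMEM + Rux against DMEM was -0.036 with the block in the compared groups alone, and Ass1 in the difference of effects was 0.049 without replicate 2 of every group. Depth limits Arg1 in the DMEM groups and at 2 h, where it had 0 to 3 counts, and Nos2 in the DMEM groups, where it had 0 to 16 counts.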
